A study of Mus musculus with 6 samples.

Results

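Transcripts of the glucagon receptor and of the cAMP signalling chain behind it were described in mouse liver with and without LKB1. The 10 genes were chosen by symbol, with earlier results of these data known. They are the receptor Gcgr, the G protein gene Gnas, the adenylate cyclases Adcy6 and Adcy9, the protein kinase A (PKA) subunits Prkaca, Prkacb, Prkar1a and Prkar2a, and the phosphodiesterases Pde4b and Pde4d. All 10 were among the 55450 genes of the deposited table, and all 10 passed the filter on low counts that left 14539 genes for testing. The knockout group was 3 mice with loxP-flanked alleles of LKB1 (LKB1 fl/fl), a kinase gene whose symbol is Stk11, and the control group was 3 wild-type (WT) mice. Both groups were of strain C57BL/J as labelled and were given the same agent, an adeno-associated virus of serotype 8 carrying the recombinase Cre (AAV8 Cre), at 6 weeks of age. The left liver lobe was taken 4 weeks later, at 10 weeks of age, and poly(A) RNA of 1 mouse went into each library. The promoter driving Cre is not given in the sources used here. The series title names metabolic reprogramming as its subject, and the single contrast the labels define is knockout against WT.

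Glucagon binds its receptor on hepatocytes in fasting. The receptor acts through the stimulatory G protein alpha subunit, encoded by Gnas, on adenylate cyclases, which make cAMP from ATP. cAMP binds the regulatory subunits of PKA and frees the catalytic subunits, which phosphorylate metabolic enzymes and the transcription factor CREB, while phosphodiesterases break cAMP down and end the signal. CREB binds the cAMP response element, an 8-base palindrome, and PKA also acts against SIK kinases, which LKB1 activates.

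Because CREB is a textbook target of this pathway, the promoter windows of the members were searched for the cAMP response element TGACGTCA and for its core TGACG, on both strands, the core being counted also inside the full element. The windows run from 250 bases before to 50 bases after a RefSeq transcription start on build GRCm38.p6, and 9 of the 10 members had at least 1 (not Adcy6), 23 windows in all, some of which overlap. The full element was found in 2 overlapping windows of Prkar1a and in none of the other members' windows, against 1.79% of all 32851 windows. The core was found in 11 of the 23 windows, from 7 genes, against 20.8% of all windows. Base composition was not matched in this comparison, and a match is a description of letters and not of binding. The windows of 4 members are shown, with the element or its core in capitals: the receptor, the only member past the test threshold (Pde4d), its paralog Pde4b, and the only member with the full element (Prkar1a). All lie on the plus strand, at chr11:120530477-120530776 (Gcgr), chr13:108653927-108654226 (Pde4d), chr4:102421305-102421604 (Pde4b) and chr11:109650612-109650911 (Prkar1a).
Gcgr: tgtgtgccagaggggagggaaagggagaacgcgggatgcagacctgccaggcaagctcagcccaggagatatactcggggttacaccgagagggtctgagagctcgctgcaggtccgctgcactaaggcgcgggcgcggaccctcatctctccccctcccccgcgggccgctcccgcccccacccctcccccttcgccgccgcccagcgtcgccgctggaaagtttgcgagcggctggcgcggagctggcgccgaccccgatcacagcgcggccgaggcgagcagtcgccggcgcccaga
Pde4d: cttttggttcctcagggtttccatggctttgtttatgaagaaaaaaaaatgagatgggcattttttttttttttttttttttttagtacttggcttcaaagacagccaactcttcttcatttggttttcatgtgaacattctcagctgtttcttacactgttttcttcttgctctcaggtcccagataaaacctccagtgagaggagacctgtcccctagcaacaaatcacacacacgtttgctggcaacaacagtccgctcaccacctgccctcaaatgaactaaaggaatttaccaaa
Pde4b: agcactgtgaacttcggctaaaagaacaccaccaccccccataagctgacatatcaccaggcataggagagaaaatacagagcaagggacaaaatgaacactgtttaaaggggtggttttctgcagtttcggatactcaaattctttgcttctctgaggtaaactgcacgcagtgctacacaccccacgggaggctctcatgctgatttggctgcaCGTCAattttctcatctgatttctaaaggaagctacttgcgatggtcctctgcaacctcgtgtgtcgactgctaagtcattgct
Prkar1a: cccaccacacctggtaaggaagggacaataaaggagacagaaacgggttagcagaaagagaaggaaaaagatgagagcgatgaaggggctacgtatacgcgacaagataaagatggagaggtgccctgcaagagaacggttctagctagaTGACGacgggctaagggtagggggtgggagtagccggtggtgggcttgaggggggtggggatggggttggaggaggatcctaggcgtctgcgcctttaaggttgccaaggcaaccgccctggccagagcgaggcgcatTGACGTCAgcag
Neither the Gcgr nor the Pde4d window held the element or its core. The Pde4b window held the core on the reverse strand, starting 34 bases before the transcription start, and the other 3 windows of Pde4b did not. The Prkar1a window held the core at 100 bases before the start and the full element 39 bases into the transcript, and the full element lies 49 bases before a second annotated start. The Pde4d window belongs to 1 start of a gene that spans chromosome 13 from 108449948 to 109953461 with 20 annotated transcripts.

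The libraries held 47659106 to 56147638 counts and 18999 to 20241 genes with a count, and the members had 214 to 18442 counts each per library. Stk11 was at 22.1, 14.4 and 11.4 CPM (counts scaled by library size and by TMM factors for library composition) in knockout 1 to 3 and at 66.1, 64.2 and 69.7 CPM in WT 1 to 3, which makes a log2 fold change of -2.06 ± 0.247 (SE) at an adjusted p of 0.0167 over whole-gene counts. Knockout 1 and WT 1 had 42472 and 29243 counts of Xist, the RNA of the inactive X chromosome, and at most 6 counts of 4 Y-linked genes, whereas the other 4 libraries had 6146 to 8199 Y-linked counts and at most 16 of Xist. Each group thus holds 1 Xist-positive library (knockout 1, WT 1) and 2 Y-positive libraries (the others), and members are also described within these subsets. Over all genes 490 passed an adjusted p of 0.05 in edgeR's quasi-likelihood test, 313 higher and 177 lower in knockout, or 380 and 131 when libraries were scaled by their totals alone. The labelled tissue was borne out by its markers, since the 7 hepatocyte markers found had summed levels from 22380 to 69531 CPM in knockout libraries and from 92100 to 118926 CPM in WT libraries. Those of bile duct, stellate, endothelial, macrophage and blood cells summed to no more than 432 CPM per list. In bulk tissue, fewer cells of a type and less RNA per cell cannot be told apart.

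Of the 10 members, 1 rose in knockout (Pde4d), 0 fell and 9 did not pass the threshold in edgeR's quasi-likelihood test, against 3.37% of all 14539 genes called, 2.15% as higher and 1.22% as lower. An unadjusted p under 0.05 was reached by 2 members, Pde4d and Pde4b, both higher, against 26.3% of all genes. Pde4d was also the 1 member called by DESeq2 (15.8% of all genes), by limma voom (2.97%) and with the Xist state as a further term (10.3%). The median log2 fold change of the members was 0.00, with 5 positive and 5 negative, beside 0.01 for all genes tested. The groups did not overlap for 4 members, against 32.4% of all genes: 2 lay above WT (Pde4b and Pde4d, against 16.9%) and 2 below (Gnas and Adcy9, against 15.5%).

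**Figure D1:**
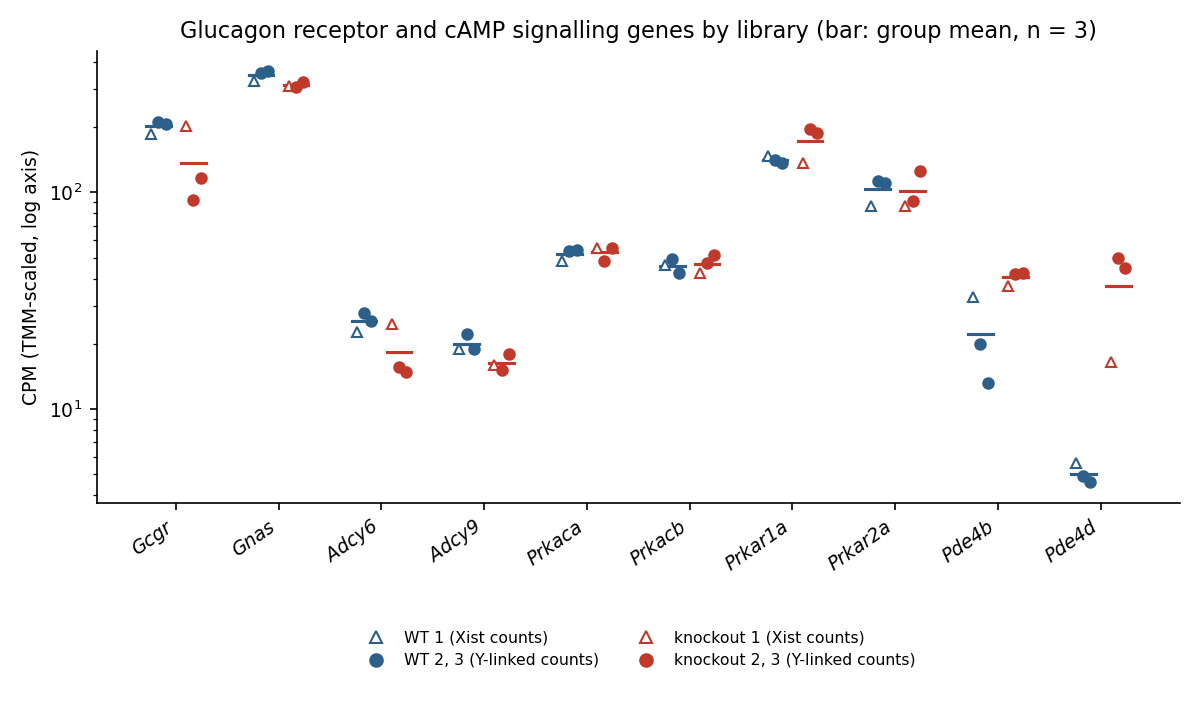
CPM of the 10 members (log axis) in the 3 WT libraries (blue) and the 3 knockout libraries (red), with the mean of each group as a bar; open triangles are the libraries with Xist counts. Pde4d lies at 4.58 to 5.60 CPM in WT and 16.5 to 49.6 CPM in knockout, and Gcgr of knockout 1 lies with the WT libraries.

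Pde4d encodes a cAMP-specific phosphodiesterase, an enzyme that hydrolyses cAMP and that PKA itself activates by phosphorylation. It was at 5.60, 4.90 and 4.58 CPM in WT 1 to 3 and at 16.5, 49.6 and 44.8 CPM in knockout 1 to 3. Every knockout library was thus above every WT library, with knockout 1 the lowest of the 3. The mean rose from 5.02 ± 0.523 to 36.96 ± 17.9 CPM (SD, n = 3 each), a ratio of 7.36, and edgeR gave a log2 fold change of 2.88 ± 0.408 (SE) at an adjusted p of 0.0249. With the replicate number as a block the adjusted p was 0.0663, where 0.722% of all genes were called. Leaving out any 1 library except knockout 1 also ended the call, while the log2 fold change stayed between 2.61 and 3.23. The adjusted p was 0.0636 and 0.114 without knockout 2 and 3, where 0.578% and 0.233% of all genes were called, and 0.0576, 0.148 and 0.140 without WT 1, 2 and 3, where 1.75%, 0.0401% and 0.133% were called.

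Pde4b encodes a second enzyme of the same subfamily, known from immune cells as well as other tissues. Its level was 33.0, 20.02 and 13.2 CPM in WT 1 to 3 and 36.8, 42.2 and 42.4 CPM in knockout 1 to 3. The groups did not overlap, but WT 1 was close to knockout 1. The difference, 0.87 ± 0.310 on the log2 scale (SE), did not pass the threshold in edgeR (adjusted p = 0.140). Macrophage markers, a list of 8 genes with 0 called, had summed levels from 105 to 233 CPM in knockout libraries and from 144 to 198 CPM in WT libraries, and markers of T, B and NK cells to 4.61 to 10.6 and 7.14 to 10.5 CPM. Neutrophil markers summed to 1.19 to 2.14 CPM in knockout libraries and 0.945 to 1.60 CPM in WT libraries. Of the 4 neutrophil markers tested, 3 had a positive and 1 a negative log2 fold change, with 0 called in edgeR. Each of these sums overlapped between the groups, and the part of these cells in the Pde4b values was not tested.

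Among the 13 other cAMP phosphodiesterase genes tested of 14 listed, 2 rose, 0 fell and 11 did not pass the threshold, with a median log2 fold change of -0.06. In edgeR 2.15% of all genes rose. Of the 13, 4 had an unadjusted p under 0.05, 3 higher and 1 lower, against 26.3% of all genes. DESeq2 called 2 as higher and 1, Pde2a, as lower, against 15.8% of all genes. Pde10a, which hydrolyses both cAMP and cGMP, was at 0.414, 0.212 and 0.620 CPM in WT 1 to 3 and at 6.35, 29.7 and 17.0 CPM in knockout 1 to 3, which gave 5.41 ± 0.689 on the log2 scale (SE, edgeR adjusted p = 0.0185). Pde7b, a cAMP-specific enzyme, was at 5.44, 4.44 and 3.27 CPM in WT and at 13.4, 23.96 and 20.1 CPM in knockout, which gave 2.13 ± 0.280 (SE, edgeR adjusted p = 0.0202). In both genes, as in Pde4d, knockout 1 was the lowest knockout library and lay above every WT library. With the replicate block the adjusted p was 0.0512 for Pde10a and 0.0615 for Pde7b, and limma voom did not call Pde10a (adjusted p = 0.0644). Of the 6 fits that left out 1 library, Pde10a was called only without knockout 1 or knockout 2, and Pde7b only without knockout 1 or WT 1. The other 2 genes of the Pde4 subfamily, Pde4a and Pde4c, had log2 fold changes of 0.35 ± 0.236 and -0.03 ± 0.221 (SE).

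**Figure D2:**
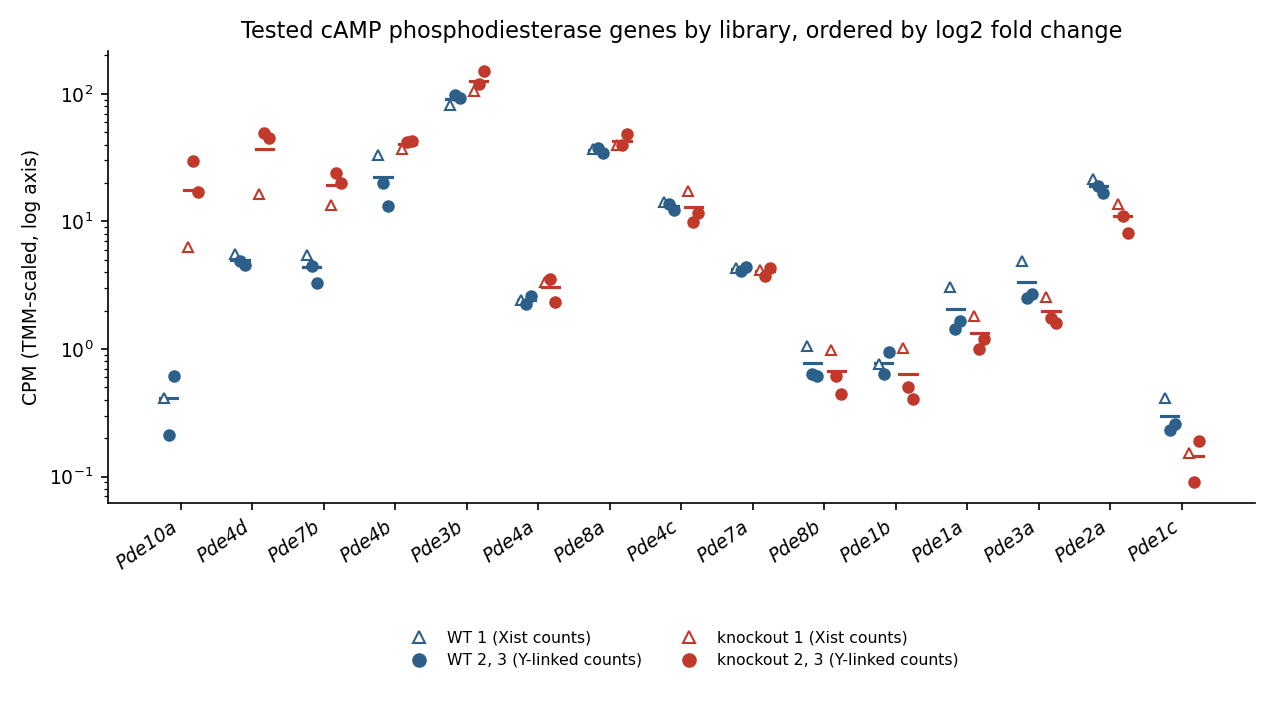
CPM (log axis) of the 15 cAMP phosphodiesterase genes tested, ordered by log2 fold change, in WT (blue) and knockout (red) libraries, with group means as bars. Pde10a, Pde4d and Pde7b show a gap between the groups; Pde2a, the last but 1, is lower in all 3 knockout libraries.

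Levels of different genes were compared as CPM per kb of annotated exon. The 15 phosphodiesterase genes summed to 30.2, 29.6 and 27.2 CPM per kb in WT 1 to 3 and to 34.9, 40.4 and 43.8 CPM per kb in knockout 1 to 3. Pde3b, a phosphodiesterase that insulin activates, made up 34.3% ± 4.11 of this sum in WT and 34.4% ± 2.77 in knockout (SD, n = 3 each). Pde8a made up 30.9% ± 0.711 and 26.6% ± 1.91. The level of Pde3b itself was 81.8, 97.1 and 92.7 CPM in WT 1 to 3 and 105, 120 and 150 CPM in knockout 1 to 3. These groups did not overlap, and the log2 fold change of 0.47 missed the threshold in edgeR (adjusted p = 0.147). The share of Pde4d went from 1.44% ± 0.0885 to 7.56% ± 3.25 and that of Pde4b from 7.11% ± 2.93 to 9.68% ± 0.449. Pde7b and Pde10a held 3.84% ± 0.854 and 3.38% ± 2.2 in knockout against 1.21% ± 0.240 and 0.113% ± 0.0610 in WT. With the longest transcript as the length of each gene the Pde4d share was 2.90% ± 0.112 in WT and 13.5% ± 5.46 in knockout. The Pde3b share was then 33.6% ± 4.83 in WT and 30.3% ± 2.71 in knockout, so these shares depend on the length taken. Pde4d was below Pde4b in every WT library, at a per-kb ratio of 0.149 to 0.304, and reached ratios of 0.394, 1.03 and 0.929 in knockout 1 to 3.

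Gcgr encodes the glucagon receptor, which liver carries at a high level. It was at 187, 212 and 207 CPM in WT 1 to 3 and at 203, 91.9 and 117 CPM in knockout 1 to 3. Knockout 2 and 3 were below all WT libraries, and knockout 1 lay among them. The log2 fold change of -0.56 ± 0.293 (SE) over all 6 libraries missed the threshold in edgeR, with an adjusted p of 0.273. In a fit of the 4 Y-positive libraries alone Gcgr fell by 1.01 on the log2 scale (adjusted p = 0.00811), where 33.3% of all genes were called, and the log2 ratio of the Xist-positive pair was 0.12. The receptor is a hepatocyte gene, and the summed level of hepatocyte markers was below WT in every knockout library, at 69531, 22380 and 37659 CPM in knockout 1 to 3. Most of this sum in WT was Alb (74222 ± 19628 CPM, SD, n = 3), which was at 50550, 10395 and 17534 CPM in knockout 1 to 3. Single markers went both ways, since Alb, Apoa1, Ttr and Apob lay below WT in all knockout libraries and Cps1 and Hnf4a above. Serpina1e overlapped through WT 1 alone, at 168, 50.3 and 34.8 CPM in knockout 1 to 3 and 89.2, 9794 and 11449 CPM in WT 1 to 3. Of these 7 markers, 0 passed in edgeR and 4 had an unadjusted p under 0.05 (3 lower, 1 higher), against 26.3% of all genes. DESeq2 called 4 as lower and 1 as higher, against 15.8% of all genes. Their part in the Gcgr values was not tested. The Gcgr gene (chromosome 11, 120530699 to 120538986) overlaps the antisense gene Gm11789, which had 285 to 779 counts against 5107 to 11831 for Gcgr, and because the use of strand in counting is not given in the sources used here, some reads may have been assigned to the wrong one.

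Other receptors of this kind, most of which couple to the same G protein, did not pass the test either. Of 16 listed, 9 were tested and 0 passed the threshold in edgeR. An unadjusted p under 0.05 was reached by 2, 1 in each direction (26.3% of all genes). DESeq2 called 1 in each direction (15.8% of all genes). Adcyap1r1, the receptor of the neuropeptide PACAP, was at 2.27, 1.31 and 1.43 CPM in WT and 0.961, 0.666 and 0.318 CPM in knockout (log2 fold change -1.35, adjusted p = 0.126). The highest of the 9 was Vipr1, a receptor of the peptide VIP, at 41.6, 26.6 and 29.9 CPM in WT and 30.8, 26.3 and 22.7 CPM in knockout, with overlapping groups (log2 fold change -0.30, adjusted p = 0.387). The receptors of the related hormones GLP-1 and GIP did not pass the filter, with 16 and 1 counts over all 6 libraries.

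Gnas encodes the stimulatory alpha subunit from a complex imprinted locus on chromosome 2 (174284320 to 174346744) with 24 annotated transcripts. It was at 327, 356 and 363 CPM in WT 1 to 3 and at 311, 308 and 325 CPM in knockout 1 to 3. The highest knockout value was just under the lowest WT value, and the log2 fold change came to -0.15 ± 0.143 (SE, 95% interval -0.49 to 0.19, adjusted p = 0.547). Of 20 other G protein subunit genes listed, 18 were tested and 0 passed the threshold in edgeR. Of the 18, 4 had an unadjusted p under 0.05, 2 in each direction (26.3% of all genes). DESeq2 called 1, Gna12, as lower (15.8% of all genes called). Gna12, an alpha subunit of a class that does not act on adenylate cyclase, was at 86.1, 160 and 146 CPM in WT and 77.8, 48.2 and 56.7 CPM in knockout (log2 fold change -1.10, adjusted p = 0.0756). Gng5, a gamma subunit, was at 50.5 to 55.02 CPM in WT and 56.01, 83.4 and 81.8 CPM in knockout (log2 fold change 0.49, adjusted p = 0.138).

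Adcy6 and Adcy9 encode membrane adenylate cyclases. Adcy6 was at 22.8, 27.8 and 25.5 CPM in WT 1 to 3 and at 24.8, 15.6 and 14.8 CPM in knockout 1 to 3. This is the arrangement seen for Gcgr, with knockout 2 and 3 below WT and knockout 1 within its range. The log2 fold change was -0.46 ± 0.217 (SE, adjusted p = 0.227) over all libraries and -0.82 (adjusted p = 0.00492) among the Y-positive ones, where Adcy6 fell. Adcy9 was at 18.8, 22.2 and 18.99 CPM in WT and at 15.9, 15.1 and 17.8 CPM in knockout. Its groups did not overlap, and the log2 fold change of -0.30 ± 0.127 (SE, adjusted p = 0.195) missed the threshold, as did that of the Y-positive libraries (-0.33, adjusted p = 0.126).

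Of the 8 other adenylate cyclase genes, 6 were tested, 1 rose (2.15% of all genes) and 0 fell in edgeR. An unadjusted p under 0.05 was reached by 1 (26.3% of all genes). DESeq2 called the same gene (15.8% of all genes) and limma voom called 0 (2.97%). The gene was Adcy1, a calmodulin-stimulated cyclase best known from neurons, which was at 1.06, 0.540 and 0.556 CPM in WT 1 to 3 and at 2.88, 8.28 and 5.31 CPM in knockout 1 to 3. Its log2 fold change was 2.92 ± 0.480 (SE, edgeR adjusted p = 0.0325), and the adjusted p was 0.0858 under the replicate block and 0.0558 in limma voom. Among the fits that left out 1 library it was called only without knockout 1 or WT 1. Per kb of exon the 8 cyclase genes tested had a summed level of 9.19 ± 0.277 CPM per kb in WT (SD, n = 3) and of 8.80, 6.72 and 6.91 CPM per kb in knockout 1 to 3. Adcy6 and Adcy9 held 40.7% ± 3.01 and 41.9% ± 2.71 of that sum in WT and 35.8% ± 5.12 and 42.6% ± 7.46 in knockout, and Adcy1 held 0.629% ± 0.274 and 6.20% ± 3.61 (SD, n = 3 each).

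**Figure D3:**
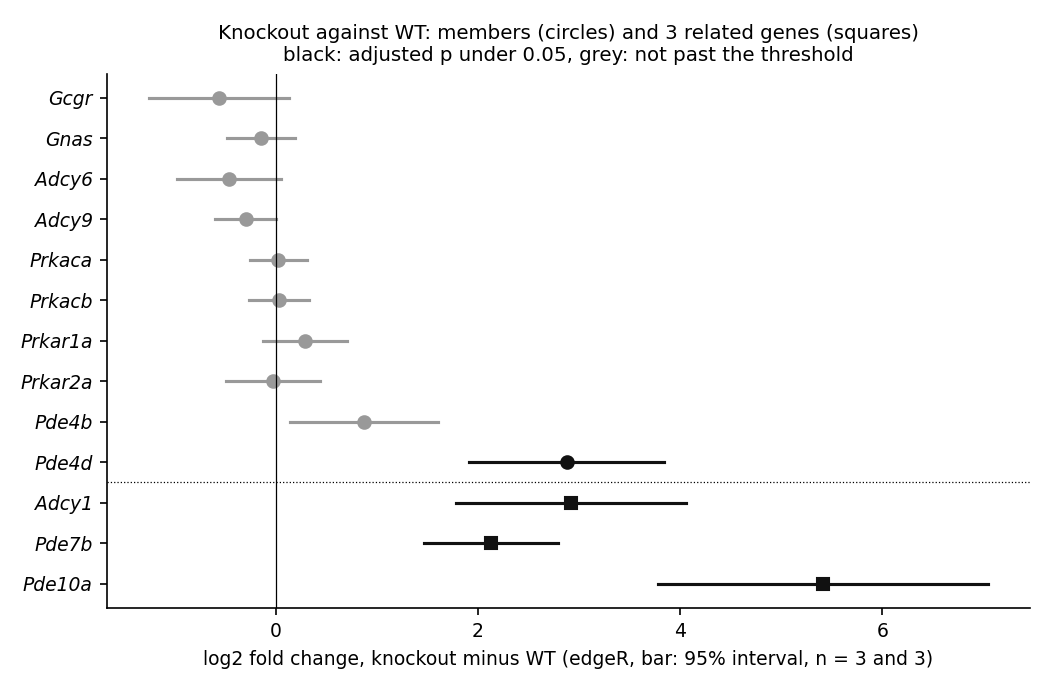
Log2 fold change of knockout minus WT with its 95% interval (edgeR, 3 libraries per group) for the 10 members (circles) and for Adcy1, Pde7b and Pde10a (squares). Black marks an adjusted p under 0.05, which Pde4d and the 3 related genes reach; the intervals of Prkaca and Prkacb lie around 0.

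PKA is a tetramer of regulatory and catalytic subunits. Prkaca and Prkacb encode its main catalytic subunits. Prkaca was at 48.3, 53.7 and 54.03 CPM in WT 1 to 3 and at 55.4, 48.3 and 55.3 CPM in knockout 1 to 3. Prkacb was at 46.4, 49.1 and 42.3 CPM in WT and at 42.4, 47.1 and 51.3 CPM in knockout. The groups overlapped for both genes. The log2 fold changes were 0.03 ± 0.118 and 0.03 ± 0.125 (SE), with 95% intervals from -0.25 to 0.31 and from -0.27 to 0.33, so that a 2-fold change in either direction lies outside both intervals, and the sign of either value turned in some fits that left out 1 library.

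Prkar1a encodes the type I alpha regulatory subunit, which is also known as a brake on free catalytic subunits. It was at 147, 142 and 136 CPM in WT 1 to 3 and at 136, 196 and 188 CPM in knockout 1 to 3. Knockout 2 and 3 were above every WT library, and knockout 1 was at the level of the lowest. The log2 fold change was 0.29 ± 0.175 (SE, adjusted p = 0.332) over all libraries and 0.46 (adjusted p = 0.0372) among the Y-positive ones, where Prkar1a rose. Prkar2a, the type II alpha regulatory subunit, was at 86.2, 113 and 111 CPM in WT and at 86.9, 91.1 and 126 CPM in knockout. Its groups overlapped, and its log2 fold change of -0.03 ± 0.195 (SE, 95% interval -0.49 to 0.44) turned positive, at 0.0087, when libraries were scaled by their totals alone.

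Per kb of exon, Prkaca made up 79.9% ± 1.68 of the 2 catalytic transcripts in WT and 79.9% ± 2.01 in knockout. Prkar1a made up 67.02% ± 3.96 of the 2 regulatory transcripts in WT and 71.5% ± 3.93 in knockout (SD, n = 3 each). The ratio of regulatory to catalytic transcripts was 1.93, 1.86 and 1.84 in WT 1 to 3 and 1.67, 2.40 and 2.25 in knockout 1 to 3. Knockout 2 and 3 were above the WT libraries in this ratio and knockout 1 below them. Among the 6 other PKA subunit and inhibitor genes, all tested, 0 passed the threshold in edgeR. The 1 gene with an unadjusted p under 0.05 (26.3% of all genes) was also the 1 called by DESeq2 (15.8% of all genes). This was Prkx, an X-linked gene for a PKA-related kinase, at 5.28, 5.96 and 4.85 CPM in WT and 2.86, 3.38 and 3.03 CPM in knockout (log2 fold change -0.79, adjusted p = 0.0605). Pkig, an inhibitor of the catalytic subunits, was at 7.79 to 9.62 CPM in WT and 10.4 to 11.1 CPM in knockout (log2 fold change 0.30, adjusted p = 0.211).

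**Figure D4:**
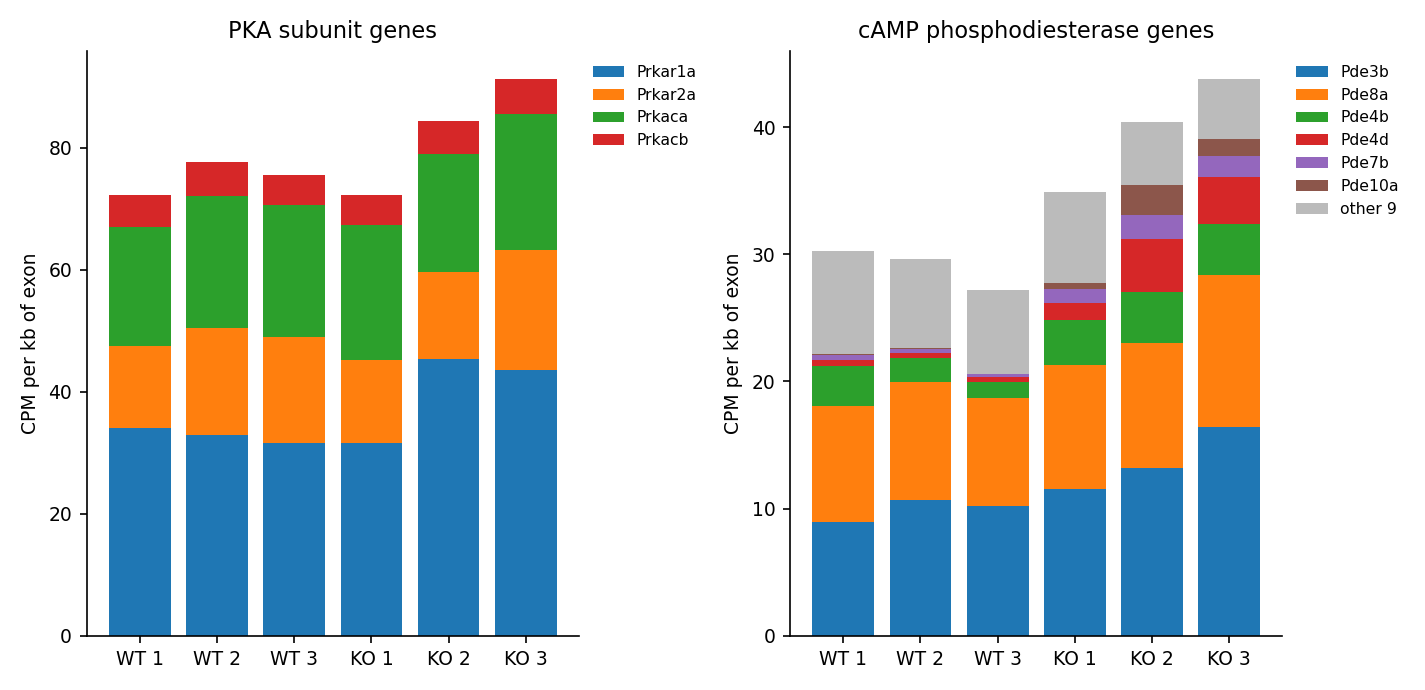
Levels in CPM per kb of exon, stacked by gene, of the 4 PKA subunit genes (left) and of the 15 cAMP phosphodiesterase genes (right, 9 of them pooled as grey) in each library. The Pde4d, Pde7b and Pde10a segments are thin in WT and wider in knockout 2 and 3, and the Prkar1a segment is tallest in knockout 2 and 3.

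Across the members, the levels in WT ran from 77.1 ± 4.99 CPM per kb for Gcgr to 0.418 ± 0.0436 CPM per kb for Pde4d (SD, n = 3). Between them came Prkar1a (32.8 ± 1.26), Gnas (31.1 ± 1.72), Prkaca (20.9 ± 1.3), Prkar2a (16.2 ± 2.32), Prkacb (5.23 ± 0.387), Adcy9 (3.85 ± 0.369), Adcy6 (3.74 ± 0.373) and Pde4b (2.09 ± 0.951), all in CPM per kb. The neighbours Prkar1a and Gnas, and Adcy9 and Adcy6, differed by less than the larger of their SDs. In knockout Pde4d was at 3.08 ± 1.49 CPM per kb, within its SD of Adcy6 (2.71 ± 0.817), Adcy9 (3.14 ± 0.271) and Pde4b (3.83 ± 0.300). The order depends on the length: with the longest transcript in place of all exons, Gnas was at 88.3 and Gcgr at 80.7 CPM per kb in WT.

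For 5 members the knockout over WT ratio lay farther from 0 on the log2 scale in the Y-positive libraries than in the Xist-positive pair by over 0.3. Pde4d was at 3.29 in the former and 1.54 in the latter, Pde4b at 1.37 and 0.16, Prkar1a at 0.46 and -0.11, Adcy6 at -0.81 and 0.12, and Gcgr at -1.01 and 0.12. The Xist-positive pair has 1 library per group and so no replicate check of its own. The interaction of group and Xist state passed an adjusted p of 0.05 for 1 member, Pde4d (-1.76 ± 0.199 in the pair relative to the other libraries, SE, adjusted p = 0.0175), against 2.9% of all genes. It did not pass for Adcy6 (0.93, adjusted p = 0.0652), Gcgr (1.12, adjusted p = 0.111), Pde4b (-1.19, adjusted p = 0.146) or Prkar1a (-0.57, adjusted p = 0.213), so a difference between the subsets is not shown for these. With 1 Xist-positive library per group, the spread behind these values comes from the Y-positive libraries alone. In the 4 Y-positive libraries alone, 5 members were called, Pde4d, Pde4b and Prkar1a as higher and Gcgr and Adcy6 as lower, where 17.2% of all genes were called as higher and 16.1% as lower. Leaving out knockout 1 alone gave calls for 4 of these, all but Pde4b, where 30.2% of all genes were called. Knockout 1 also kept the most Stk11, at 22.1 CPM against 14.4 and 11.4 CPM in knockout 2 and 3. The Stk11 log2 ratio was -1.57 in the Xist-positive pair and -2.38 in the Y-positive libraries. Its interaction in edgeR, 0.80, did not pass the threshold (adjusted p = 0.164). The Xist state, the remaining Stk11 and anything else that sets these mice apart cannot be told apart here.

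**Figure D5:**
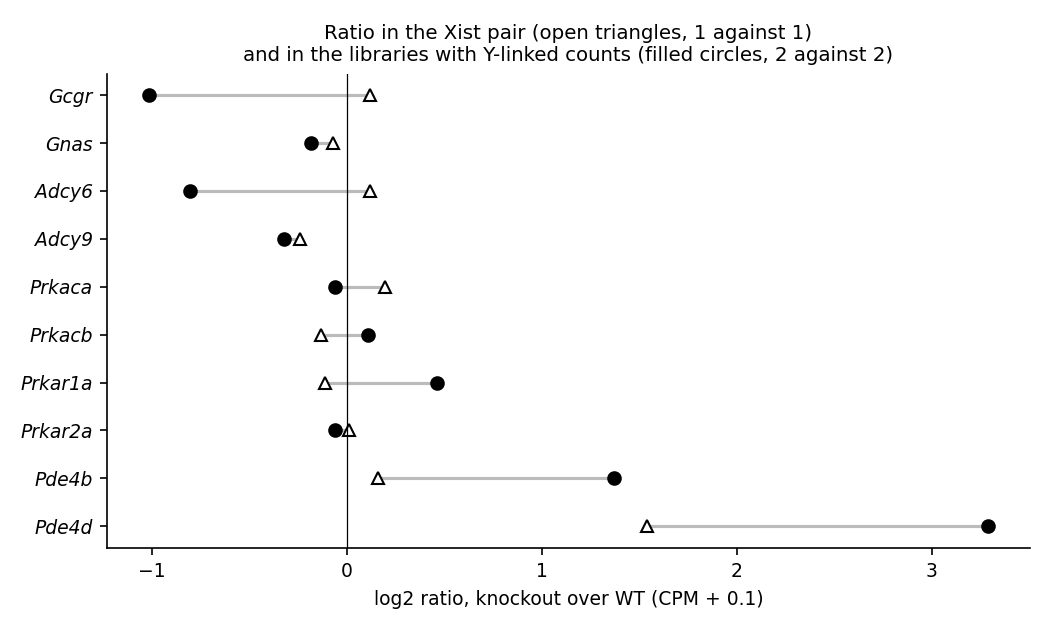
Log2 ratio of knockout over WT (CPM + 0.1) of each member in the Xist-positive pair (open triangles, 1 library per group) and in the Y-positive libraries (filled circles, 2 against 2), joined by a line. The longest lines belong to Pde4d, Pde4b, Gcgr and Adcy6; Pde4d is above 0 in both subsets.

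Downstream and regulatory genes of the pathway were read from the same fit. Of 16 A-kinase anchoring proteins listed, which tether PKA to places in the cell, 12 were tested and 0 passed the threshold in edgeR. Of the 12, 2 had an unadjusted p under 0.05 (26.3% of all genes) and DESeq2 called 1 (15.8% of all genes). Akap8 was at 28.1 to 28.9 CPM in WT and 34.6 to 42.7 CPM in knockout (log2 fold change 0.48, adjusted p = 0.0745), and Akap9 at 33.4 to 44.6 and 30.7 to 31.9 CPM (log2 fold change -0.35, adjusted p = 0.163). The exchange factors that cAMP activates without PKA, Rapgef4 and Rapgef3, did not pass in edgeR, limma voom or DESeq2, with 0 at an unadjusted p under 0.05. Of 15 alternative fits, 2 called Rapgef4, 1 of them among the 6 that left out 1 library. The log2 ratio of Rapgef4 was -0.43 in the Xist-positive pair and 0.50 in the Y-positive libraries. Rapgef4 was at 158, 254 and 283 CPM in knockout 1 to 3 and 185 to 213 CPM in WT, again with knockout 1 on the other side of WT from knockout 2 and 3, and Rapgef3 was at 1.80 to 2.52 and 1.77 to 3.19 CPM. Of 16 receptor kinases, arrestins and RGS proteins, all tested, 0 passed in edgeR and DESeq2 called 1 (15.8% of all genes). An unadjusted p under 0.05 was reached by 3, all higher (26.3% of all genes in either direction). These included Grk5, a kinase of activated receptors, at 7.10, 9.89 and 14.3 CPM in WT and 24.1, 17.4 and 17.5 CPM in knockout (log2 fold change 0.92, adjusted p = 0.0995), and Rgs1 at 0.771 to 1.2 and 1.56 to 3.38 CPM (log2 fold change 1.07, adjusted p = 0.152).

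A list of 13 genes known to respond to cAMP gave a different count. The list was drawn up with earlier results of these data known. All 13 had a positive log2 fold change, as had 7410 of all 14539 genes. In edgeR 6 rose past the threshold and 0 fell, against 2.15% and 1.22% of all genes. DESeq2 called 11 as higher and 0 as lower, against 15.8% of all genes in either direction. The median log2 fold change was 1.85 beside 0.01 for all genes. The smallest was that of G6pc, the last enzyme of glucose output, at 0.09 ± 0.346 (SE, adjusted p = 0.889), with overlapping groups and log2 ratios of 1.02 in the Xist-positive pair and -0.49 in the Y-positive libraries. Crem, a CREB-family gene with a cAMP-inducible repressor form, was at 22.7, 28.1 and 21.6 CPM in WT and 45.8, 52.03 and 60.98 CPM in knockout (1.13 ± 0.163 on the log2 scale, SE, adjusted p = 0.0255). The nuclear receptor genes Nr4a2 and Nr4a1 had log2 fold changes of 4.07 and 2.66 (adjusted p = 0.0103 and 0.0191), and Tat, a tyrosine-degrading enzyme, 1.86 (adjusted p = 0.0344). The replicate block kept the calls of Nr4a2 and Nr4a1, at 0.0109 each, and ended those of Crem (0.0642) and Tat (0.0795). Leaving out WT 2 or WT 3 ended every call among these lists.

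In 4 of the 7 marker lists of other cells, all or all but 1 of the tested genes had a negative log2 fold change. All 8 endothelial markers were lower in knockout, 7 of them without overlap, against 15.5% of all genes below WT without overlap. The 8 together reached 131, 101 and 79.4 CPM in knockout 1 to 3 and 160 to 221 CPM in WT. Of these, 0 passed in edgeR, 7 had an unadjusted p under 0.05 (26.3% of all genes) and DESeq2 called 5 (15.8% of all genes). Pde2a was lower beside them, at 13.7, 11.04 and 8.17 CPM in knockout and 21.5, 18.8 and 16.8 CPM in WT (log2 fold change -0.79, adjusted p = 0.0784). The part of endothelial cells in the Pde2a, Gcgr and Adcy6 values was not tested. All 8 stellate markers, all 5 red blood cell markers and 6 of the 7 tested markers of T, B and NK cells also had negative log2 fold changes, with medians of -0.64, -1.35 and -0.83, but their groups overlapped for all except 0, 1 and 2 of them. None of these passed in edgeR, with 0, 0 and 1 at an unadjusted p under 0.05, and DESeq2 called 0, beside the same shares of all genes. Stellate markers together had 99.5 to 214 CPM in knockout libraries and 167 to 361 CPM in WT libraries, bile duct markers to 25.2 to 75.7 and 39.9 to 73.8 CPM, red blood cell markers to 42.04 to 255 and 188 to 432 CPM, and neutrophil markers to 1.19 to 2.14 and 0.945 to 1.60 CPM, with the neutrophil marker Ly6g at 0 counts in all libraries.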

How the data were processed

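Liver poly(A) RNA of 6 mice was sequenced with paired reads of 76 nt. The values the authors deposited are expected counts (estimated reads per gene and library), of which 4.93% to 5.47% per library were not whole numbers. The submitters' processing notes name bcl2fastq 2.17, cutadapt 1.18, STAR 2.7.0f and RSEM 1.3.1, and the build mm9. All 55450 gene identifiers with their versions were found in GENCODE M21 on GRCm38, so positions and exon lengths are those of GRCm38, and the build of the alignment is uncertain. The use of strand is not given in the sources used here. Groups and replicate numbers came from sample titles, columns from descriptions, and 0 columns had no sample.

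Expected counts were rounded. Genes were kept with filterByExpr (14539), libraries were scaled by TMM, and knockout was compared with WT by edgeR 4.0.16's quasi-likelihood test (R 4.3.3) with the group as the only term and Benjamini-Hochberg adjustment over all genes tested, at a threshold of 0.05. The SE is the log2 fold change over the square root of F, and the 95% interval uses its t quantile. The fit was checked on counts simulated with the spread of these data. Of simulated 2-fold changes 13.4% were called, and of 4-fold changes 74.5%. Of the calls, 7.53% were false. A gene short of the threshold is thus not shown to be unchanged. Per-subset log2 ratios use an offset of 0.1 CPM. Alternatives used DESeq2 1.42.0 and limma 3.58.1. P-values measure the spread between 3 mice per group. The members, the 9 pathway lists (111 genes, 95 tested) and the 8 marker lists (58 genes) were chosen with earlier results of these data known. Named in the text are all members, up to 4 called genes of each pathway list or, where none was called, its 2 with the smallest p, and Stk11. Pde2a, Pde3b, Pde4a, Pde4c, Pde8a, the GLP-1 and GIP receptors, Vipr1, G6pc, Gm11789, Xist, Ly6g and the hepatocyte markers were named after their values were seen. The values of 1 receptor gene are not reported here.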

Additional observations from a re-analysis of the deposited data

Results flagged for a closer look

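For 2 of the members and pathway genes named above, edgeR's test of the interaction of group and Xist state passed an adjusted p of 0.05. Of the hepatocyte markers, Serpina1e also passed, with a difference of 8.88 ± 0.594 on the log2 scale (SE). Its log2 ratio was 0.91 in the Xist-positive pair and -7.98 in the Y-positive libraries. For Pde4d the difference was -1.76 ± 0.199 on the log2 scale (SE, adjusted p = 0.0175), with a log2 ratio of 1.54 in the pair and 3.29 in the other libraries. For Gna12 it was 1.40 ± 0.232 (SE, adjusted p = 0.0452), with log2 ratios of -0.15 and -1.54. Of all 14539 genes, 421 passed this test, or 2.9%. The Xist-positive pair holds 1 library per group, so the 2 residual degrees of freedom, and with them the spread, come from the Y-positive libraries, and the pair is assumed to vary like them. Without a filter on low counts the number was 1607 genes.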

How the results depend on the processing

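Each of the 29 named genes was refitted under 15 alternatives. Of these values, 352 kept direction and side of the threshold, 41 lost the call, 29 gained it and 13 changed sign. The sign changes were in Prkar2a (0.0087 with library size alone), Prkaca and Rapgef3 (-0.062 and 0.017 in the Y-positive libraries) and in fits without 1 library, with ranges of -0.027 to 0.097 for Prkaca, -0.038 to 0.092 for Prkacb, -0.21 to 0.065 for Prkar2a and -0.32 to 0.19 for Rapgef3. The 1 call among members became 0 with the replicate block, 5 in the Y-positive libraries and 0 to 4 without 1 library. The 9 calls among other pathway genes became 21 in DESeq2, 2 with the replicate block, 16 with the Xist state as a term, 31 in the Y-positive libraries and 0 to 29 without 1 library. The 490 calls over all genes became 2290 in DESeq2, 771 without a filter, 105 with the replicate block, 1504 with the Xist state as a term, 4847 in the Y-positive libraries and 6 to 4473 without 1 library (4473 without knockout 1, 6 without WT 2). Without a filter the interaction passed for 1607 genes, 4 of them members, in place of 421 and 1. The cause was not tested. Same-numbered libraries had deviations correlated at 0.178, 0.044 and 0.068, and knockout 2 and 3 correlated better with another WT number, so the numbers were not taken as pairs. Every member had at least 214 counts in each library, and the effect of depth on the calls was not tested.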
